A study of Homo sapiens with 9 samples.

Results

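In RWPE-1 prostate epithelial cells, 401 genomic regions were called for both ectopic ERG and ectopic ETV1 and for none of the other factors mapped in the study. The peaks of all 6 deposited lists were pooled, peaks that overlapped by at least 1 bp were merged, and 24166 connected regions resulted. A region was kept when it held at least 1 ERG and 1 ETV1 peak and no ETS1, GABPA, ETV4 or JUND peak. The kept regions made up 1.66% of all merged regions. The members were thus chosen by the peak calls themselves, and the overlap of ERG with ETV1 and the absence of the other 4 factors are the choice of the regions and not findings.

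Binding was mapped by chromatin immunoprecipitation and sequencing (ChIP-seq), with 1 library per factor. RWPE-1 cells are immortalised prostate epithelial cells that do not form tumours. ERG and ETV1 were each expressed in it from a retrovirus as a FLAG fusion and precipitated with a FLAG antibody. ETS1 and GABPA were precipitated from RWPE-1 without retroviral expression, with antibodies against the proteins themselves. ETV4 and JUND were precipitated in the same way from PC3 prostate carcinoma cells, which were derived from a metastasis, so an ETV4 or JUND peak describes another cell line. The FLAG control of RWPE-1 cells and the input libraries of both lines were not analysed here. Whether the deposited lists still hold peaks that the FLAG antibody gives without a fusion protein is therefore unknown. No list carries a height or a p-value, sequencing depth is unknown, and nothing has a replicate error. Intervals below are Wilson 95% binomial intervals over regions or peaks. They cover counting error only and say nothing of the spread between cultures.

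ERG and ETV1 belong to the ETS family, whose members share a DNA-binding domain, the ETS domain, that recognises sequences with a GGAA core. ETV1 is a close relative of ETV4 in the PEA3 subfamily, and ERG belongs to another subfamily. Chromosomal rearrangements in prostate cancer can place either gene under the control of regulatory elements that are active in prostate epithelium. ETS1 is an endogenous family member that RAS/ERK signalling can activate. GABPA binds many promoters of broadly expressed genes as part of a complex with GABPB. JUND is a subunit of AP-1, a dimeric factor whose sites often lie beside ETS sites in enhancers. The sequence and gene annotation of build hg18 were not used here, so regions are given by hg18 position.

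Every one of the 401 regions consisted of exactly 1 ERG peak and 1 ETV1 peak that overlapped each other directly. The direct overlap follows from the rule and is not a finding, since no list held peaks that overlapped each other. They held 17.3% of the ERG list (15.8 to 18.9%) and 4.59% of the ETV1 list (4.17 to 5.05%). The regions with ERG and ETV1 numbered 721 in all, so 55.6% of them (52.0 to 59.2%) lacked the other 4 factors and 320 held at least 1 of these. ERG with ETV1 alone was the second most frequent combination among the 2578 regions found in more than 1 list. Only ETV4 with JUND alone, with 548 regions, came before it. ETV1 with GABPA alone followed with 296 regions and ETV1 with ETS1 alone with 182.

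Among the 320 regions that failed the rule, more held ETS1 or GABPA of the same cells than ETV4 or JUND of PC3. The ETS1 and GABPA lists together also hold more peaks than the ETV4 and JUND lists together. Of these 4 lists GABPA is the largest and ETS1 the smallest, and the counts below were not adjusted for list size. Their order can therefore not be read as a difference between the cell lines. Whether the cell line matters for them was not tested. ETS1 was present in 133 of the 721 regions (18.4%, 15.8 to 21.4%) and GABPA in 124 (17.2%, 14.6 to 20.1%). From PC3, ETV4 was present in 96 (13.3%, 11.0 to 16.0%) and JUND in 79 (10.96%, 8.88 to 13.4%). ETS1 or GABPA occurred in 219 regions, ETV4 or JUND in 127, and 26 regions were in both of these sets. In single combinations, GABPA alone accounted for 80 of the regions left out, ETS1 alone for 77, ETV4 with JUND for 39, ETS1 with GABPA for 36, ETV4 alone for 33 and JUND alone for 29.

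Regions bound by ERG and ETV1 together were less often free of other factors than regions with only one of them. Of the 1593 ERG regions without ETV1, 78.6% (76.5 to 80.5%) held none of the 4 other factors, and of the 8015 ETV1 regions without ERG, 90.2% (89.5 to 90.8%). ETS1 was present in 5.78% of the ERG regions without ETV1 and in 3.06% of the ETV1 regions without ERG. GABPA was present in 6.91% and 4.47% of them, ETV4 in 7.09% and 1.93%, and JUND in 7.34% and 1.996%. For each of the 4 factors the joint ERG and ETV1 regions had the highest share. These shares follow from the same overlaps as the rule and were not tested. A merged region of several peaks is also longer than 1 peak and offers more bases for an overlap.

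**Figure D1:**
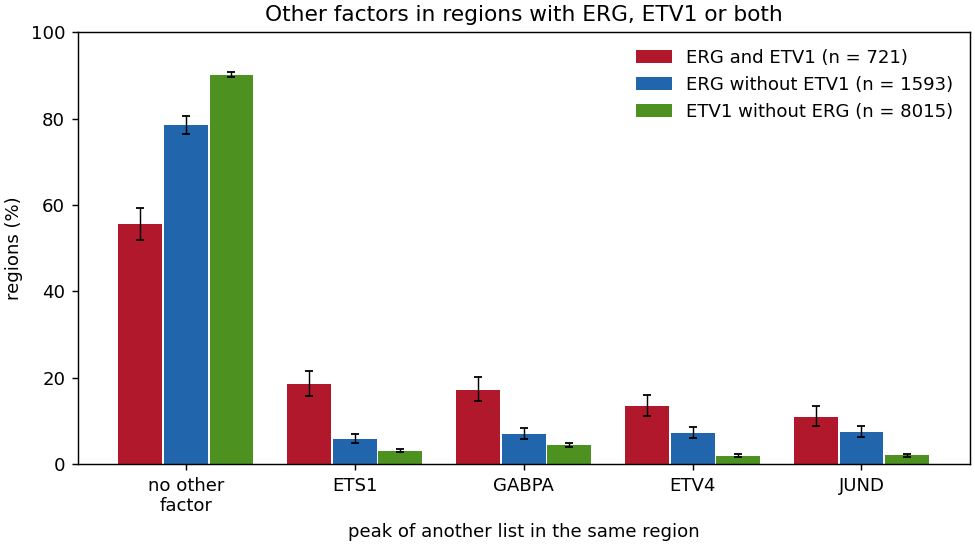
Percent of regions (bars, with Wilson 95% intervals) that held no other factor or a peak of ETS1, GABPA, ETV4 or JUND, for regions with ERG and ETV1, ERG without ETV1, and ETV1 without ERG. Regions with both proteins were free of other factors in 55.6% of cases, against 78.6% and 90.2%, and had the highest share for each of the 4 factors.

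Within the 401 regions the ERG and ETV1 peaks mostly had midpoints at most 200 bp apart, with a broad tail. The distance between their midpoints ranged from 0.5 to 484.5 bp and had a median of 125.5 bp (exact binomial 95% interval of the median 113.5 to 140 bp). It was at most 100 bp in 166 regions (41.4%, 36.7 to 46.3%), over 100 and up to 200 bp in 109 (27.2%), over 200 and up to 300 bp in 69 (17.2%), and more than 300 bp in 57 (14.2%). No peak exceeded 501 bp and the rule needs an overlap, so the choice of regions itself limits this distance. The overlap itself ranged from 16 to 496 bp with a median of 351 bp. It covered at least 50% of both peaks in 303 regions (75.6%, 71.1 to 79.5%) and at least 80% of both in 141 (35.2%, 30.6 to 39.96%). Whole regions were 406 to 985 bp long, with a median of 607 bp. The ETV1 midpoint lay at the higher coordinate in 182 regions and at the lower one in 219. The signed offset of ETV1 from ERG had a median of -18.5 bp (-36.5 to 3 bp) and a mean of -1.34 bp.

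The peaks in these regions, like those of the whole lists, were close to the greatest width the files hold. ERG peaks in the 401 regions had a median width of 483 bp and ETV1 peaks of 492 bp, and no peak of either list exceeded 501 bp. In the whole lists the medians were 482 and 484 bp. Where ERG and ETV1 peaks overlapped in regions with another factor, they were 487 and 491 bp. ERG peaks in ERG-only regions, which hold no peak of another list, had a median of 479 bp, and ETV1 peaks in ETV1-only regions one of 482 bp. A wider peak meets another more easily, so this difference goes with the rule and was not tested. Across the 401 regions the width of the ERG peak was nearly unrelated to that of the ETV1 peak (Spearman rho 0.0963, a description over regions of the same pair of libraries).

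The 319 regions with another factor in which ERG and ETV1 overlapped directly had a similar median offset and a lower share of wide offsets. Their median midpoint distance was 116 bp (97.5 to 129.5 bp), and the interval overlapped that of the regions without other factors. The midpoints were at most 100 bp apart in 45.1% of them (39.8 to 50.6%) and more than 300 bp apart in 11.9% (8.80 to 15.9%). Midpoints over 200 and up to 300 bp apart made up 11.6% (8.53 to 15.6%), against 17.2% (13.8 to 21.2%) in the 401 regions. The upper quartile of the distance was 185 bp, against 235 bp. The overlap covered at least 50% of both peaks in 81.8% (77.2 to 85.7%), against 75.6% (71.1 to 79.5%). These differences were not tested. The median overlap was 365 bp (347 to 385 bp), against 351 bp (336 to 362 bp) in the 401 regions.

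**Figure D2:**
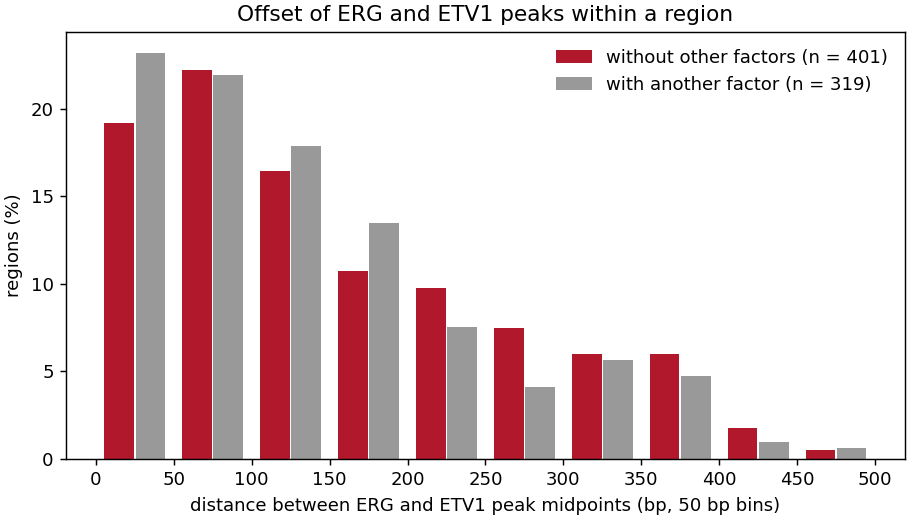
Distance between the midpoints of the ERG and ETV1 peak of a region (bp, in bins of 50 bp) against the percent of regions, for the 401 regions without other factors and the 319 with another factor in which the peaks overlap directly. In both sets most regions have midpoints less than 200 bp apart, and the medians are 125.5 and 116 bp.

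The members with the longest overlap show nearly superimposed calls. The first lay at chr8:134378929-134379430, where the ERG peak (134378932 to 134379430) and the ETV1 peak (134378929 to 134379427) were both 499 bp wide. These peaks shared 496 bp, and their midpoints were 3 bp apart. A JUND peak of PC3 lay 2888 bp away, and the nearest ETS1 peak 12136 bp away. The next were chr15:68572277-68572781, with an overlap of 489 bp and midpoints 8 bp apart, and chr10:112196876-112197371, with 488 bp and 4 bp. Around both of these, ETV4 was the nearest other factor, at 17425 and 32187 bp.

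At the other end, the members just inside the rule joined peaks that met only at their flanks. The region chr8:124263445-124264429 joined an ERG peak of 500 bp to an ETV1 peak of 501 bp through 16 shared bases, with midpoints 484.5 bp apart. It was also the widest region, at 985 bp. The regions chr1:199703918-199704865 and chr20:5878354-5879240 followed with overlaps of 21 and 28 bp and midpoint distances of 463.5 and 429.5 bp. The widest 3 regions were the first 2 of these and chr18:47395205-47396125 (921 bp, overlap 49 bp). Only 7 of the 401 regions had an overlap of 50 bp or less.

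Just outside the rule lay ERG and ETV1 peaks separated by a few bases. On chromosome 20 an ERG peak at 32995275 to 32995759 and an ETV1 peak at 32994782 to 32995249 were 25 bp apart. On chromosome 9 a pair at 132002108 to 132002606 (ERG) and 132002642 to 132003139 (ETV1) was 35 bp apart, and on chromosome 12 a pair at 121997216 to 121997696 and 121997741 to 121998240 was 44 bp apart. Of the 1252 ERG-only regions, 10 had an ETV1-only region within 100 bp, 45 within 500 bp (3.59%, 2.70 to 4.78%) and 69 within 1000 bp. A second boundary of the rule is the overlap with another factor. In only 5 of the 320 regions left out was the longest overlap with another factor 50 bp or less, and the median was 428.5 bp.

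Peaks of the other factors were found near the 401 regions at moderate frequency. A peak of at least 1 of the 4 lay within 10 kb of the edge of 109 regions (27.2%, 23.1 to 31.7%), within 1 kb of 30 (7.48%) and within 100 kb of 311 (77.6%). GABPA, the largest of these 4 lists, was the nearest factor for 217 regions (54.1%), ETS1 for 75, JUND for 61 and ETV4 for 48. These counts were not adjusted for list size and were not made for the ERG-only or ETV1-only regions. They therefore do not set the 401 regions apart. The median distance was 53.1 kb to GABPA, 191 kb to ETS1, 256 kb to JUND and 312 kb to ETV4. GABPA also had the shortest median distance for the ERG-only and for the ETV1-only regions. Within 10 kb, 292 regions had none of the 4 factors, 83 had 1, 19 had 2, 6 had 3 and 1 had all 4. ETV4 and JUND were both within 10 kb of 9 regions, and ETS1 and GABPA both within 10 kb of 9.

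The region with all 4 factors near it lay at chr9:130692325-130692851 and was picked after its values were seen. ETV4 and JUND peaks of PC3 lay 1663 and 1709 bp from its edge, a GABPA peak 7736 bp and an ETS1 peak 9075 bp. ERG and ETV1 overlapped there by 417 bp with midpoints 55 bp apart. The members nearest to another factor were chr11:72530826-72531355, whose edge touched an ETV4 peak with 0 bp between them, chr17:72793604-72794348, with ETV4 at 19 bp and JUND at 2105 bp, and chr1:200246099-200246670, with GABPA at 49 bp. Such members were kept by a few bases and mark the outer limit of what "without other factors" means. The chromosome 11 region is a member only under the assumption that starts in the files count from 0. Only 2 regions had no peak of the 4 factors within 1 Mb (a limit applied after the values were seen), chr18:47395205-47396125 and chr20:28210134-28210628.

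The surroundings were compared with those of 1252 ERG-only and 7230 ETV1-only regions, which also hold no other factor. Within 10 kb, ETS1 lay near 7.98% of the 401 regions (5.71 to 11.0%), 8.55% of the ERG-only regions (7.12 to 10.2%) and 5.31% of the ETV1-only regions (4.82 to 5.85%). For GABPA the shares were 14.96%, 17.4% and 14.6%, for ETV4 6.48%, 5.99% and 3.50%, and for JUND 6.23%, 7.59% and 3.96%. The difference from the ETV1-only regions was 2.67 percentage points for ETS1 (Newcombe 95% interval 0.334 to 5.78), 2.98 for ETV4 (0.914 to 5.86), 2.28 for JUND (0.246 to 5.12) and 0.315 for GABPA (-2.95 to 4.22). Against the ERG-only regions all 4 intervals held 0, with differences of -0.566 points for ETS1 (-3.39 to 2.82), -2.45 for GABPA (-6.30 to 1.87), 0.493 for ETV4 (-1.996 to 3.58) and -1.35 for JUND (-3.90 to 1.76). No test was made across samples, since each list is 1 library. The intervals treat regions as independent, are not adjusted over the 100 differences of shares computed, and 29 of these 100 left out 0.

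At 100 kb the shares of both endogenous factors were above those of the ETV1-only regions, whereas at 10 kb this held for ETS1 and the GABPA interval held 0. ETS1 lay within 100 kb of 39.2% of the 401 regions, 38.0% of the ERG-only and 27.4% of the ETV1-only regions, 11.7 points above the last (6.94 to 16.7). GABPA lay within 100 kb of 66.3%, 65.1% and 57.1%, 9.27 points above the ETV1-only regions (4.37 to 13.9). For ETV4 or JUND of PC3 the order differed. A peak of either lay within 100 kb of 36.4% of the 401 regions, 45.9% of the ERG-only and 34.9% of the ETV1-only regions. The difference from the ERG-only regions was -9.52 points (-14.9 to -3.97), and that from the ETV1-only regions was 1.53 points (-3.17 to 6.47). Taken singly, the differences from the ERG-only regions were -4.79 points for ETV4 (-9.51 to 0.274) and -4.53 for JUND (-9.53 to 0.764), and both intervals held 0. At 10 kb the same shares were 10.5%, 10.9% and 6.10%, so a gap to the ERG-only regions was not seen at the shorter distance (-0.469 points, -3.69 to 3.28).

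**Figure D3:**
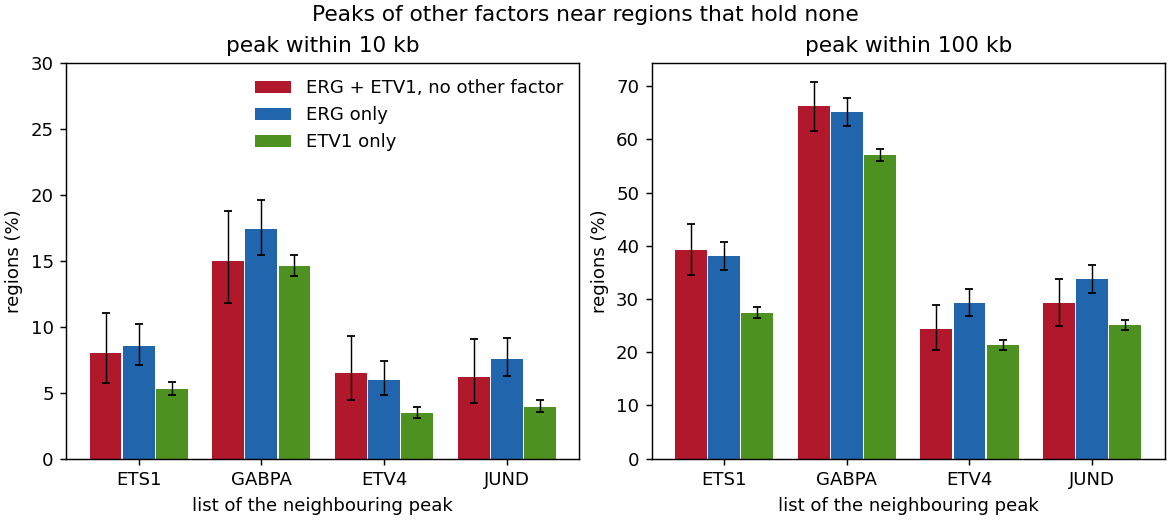
Percent of regions (bars, with Wilson 95% intervals) that had a peak of ETS1, GABPA, ETV4 or JUND within 10 kb (left) or 100 kb (right) of their edge, for ERG and ETV1 regions without other factors (n = 401), ERG-only (n = 1252) and ETV1-only regions (n = 7230). The vertical scales differ; the regions with both proteins lie near the ERG-only regions for ETS1 and GABPA at 100 kb and above the ETV1-only regions.

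Further peaks of ERG and ETV1 were also counted around these regions. A further ERG peak lay within 100 kb of 42.1% of the 401 regions (37.4 to 47.0%), 43.3% of the ERG-only regions (40.6 to 46.1%) and 29.2% of the ETV1-only regions (28.2 to 30.3%), a difference of 12.9 points from the last (8.07 to 17.9). A further ETV1 peak lay within 100 kb of 68.1% of the 401 regions (63.4 to 72.5%), 74.1% of the ERG-only and 61.9% of the ETV1-only regions. The difference from the ETV1-only regions was 6.21 points (1.37 to 10.7) and that from the ERG-only regions -6.04 (-11.3 to -1.01). Within 10 kb a further ERG peak lay near 10.97% of the 401 regions, 10.5% of the ERG-only and 6.14% of the ETV1-only regions. A further ETV1 peak did so for 19.7%, 25.8% and 13.98%. Against the ETV1-only regions these were differences of 4.83 points (2.07 to 8.31) and 5.72 points (2.03 to 9.96). Within 1 kb a further ERG peak lay near 1 of the 401 regions (0.249%) and 1.22% of the ETV1-only regions. The interval of this difference held 0 (-0.968 points, -1.31 to 0.204). The smallest distance to such a peak was 396 bp for the 401 regions and 25 bp for the ETV1-only regions. In the 401 regions 1 ERG and 1 ETV1 peak already lie inside, whereas for an ETV1-only region the nearest ERG peak, and for an ERG-only region the nearest ETV1 peak, is the first. Shares across these sets therefore do not count the same thing. The share with an ERG peak within 100 kb moved with the shares of ETS1 and GABPA at that distance, and its part in that result was not tested.

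The intervals of tightly and loosely centred members overlapped for the nearness of other factors. A peak of the 4 other factors lay within 10 kb of 26.5% of the 166 members with midpoints up to 100 bp apart (20.4 to 33.7%), 25.7% of the 109 with midpoints over 100 and up to 200 bp apart (18.4 to 34.6%) and 29.4% of the 126 with midpoints over 200 bp apart (22.1 to 37.8%). The median region width rose over these classes by construction, from 532 to 624 and 770.5 bp. The median ERG peak width was 482.5, 487 and 482 bp in the same order and the median ETV1 peak width 491, 493 and 489.5 bp.

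The 401 regions were spread over 22 of 23 chromosomes compared. Chromosome 1 held 49 (12.2%, 9.37 to 15.8%), chromosome 5 held 40 (9.98%, 7.41 to 13.3%), and chromosomes 9 and 20 held 30 each (7.48%, 5.29 to 10.5%). Relative to the ETV1 list, their share was highest on chromosome 12 (28 regions, 1.45 times the share of that list) and lowest on chromosome 22. None of the 401 lay on chromosome 22, which allows a share of up to 0.748% by the limit of 3 counts and up to 0.949% by the Wilson interval, and that chromosome held 4 ERG peaks and 89 ETV1 peaks. The low ERG count there caps the number of joint regions at 4.

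The share of ERG peaks that fell into these regions was highest on chromosome 13 and, chromosome 22 with its 4 ERG peaks aside, lowest on chromosome 11. On chromosome 13, 11 of 28 ERG peaks (39.3%) did so, and on chromosome 11, 12 of 132 (9.09%), where the whole list had 17.3%. Chromosome 13 held 2.74% of the 401 regions and 0.879% of the ERG-only regions, a difference of 1.86 points (0.477 to 4.001), with 11 regions in each set. Chromosome 11 held 2.99% of the 401 regions and 6.31% of the ERG-only regions, a difference of -3.32 points (-5.27 to -0.834), and was also below the ETV1-only regions (-2.30 points, -3.69 to -0.0848). Chromosomes 7, 10 and 22 held smaller shares than in the ETV1-only regions, and chromosomes 12 and 20 larger ones, with intervals that left out 0. On chromosome 10 the shares were 4.49% and 7.43% (-2.94 points, -4.69 to -0.377), and on chromosome 20 they were 7.48% and 4.90% (2.59 points, 0.333 to 5.62). Against the ERG-only regions, the intervals for chromosomes 7, 10, 12, 20 and 22 all held 0. The whole ERG list had 4.67% of its peaks on chromosome 10 and 7.30% on chromosome 20, near the shares of the 401 regions. Of the 46 chromosome differences, 8 had such an interval, without adjustment for their number, and shares of 1 set are not independent of each other.

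**Figure D4:**
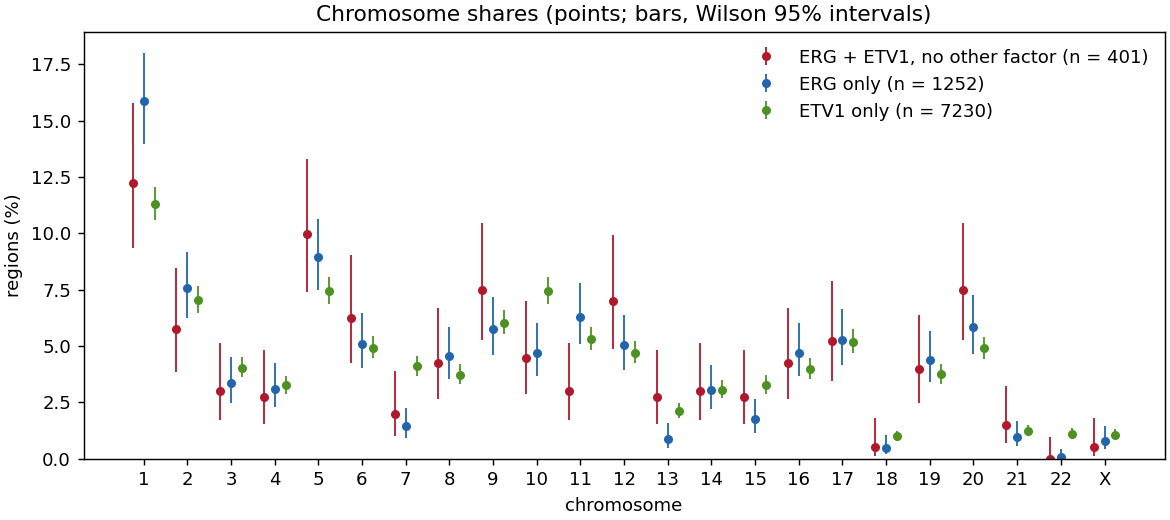
Percent of regions on each chromosome (points, with Wilson 95% intervals) for ERG and ETV1 regions without other factors, ERG-only and ETV1-only regions; 2 ETV1-only regions lie outside the chromosomes drawn. Chromosome 13 is higher and chromosome 11 lower for the joint regions than for ERG-only regions, at 2.74% against 0.879% and 2.99% against 6.31%.

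The regions were scattered singly and rarely next to each other. The median distance from a region to the nearest other one was 1157 kb, with quartiles of 295 and 3477 kb. Only 2 pairs lay within 10 kb of each other. On chromosome 5, chr5:133800478-133801216 and chr5:133802756-133803446 were 1539 bp apart, the smallest distance found. On chromosome 20 the pair was chr20:60743604-60744434 and chr20:60753936-60754475. No peak of the other 4 factors lay between or in either pair. With gaps of up to 50 kb, 28 regions formed 13 groups, and the largest group had 3 regions.

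In windows of 1 Mb, 279 of the 329 windows with a member held 1, 34 held 2, and 1 held 5. That last window lay at 224000001 to 225000000 of chromosome 1. It held 12 ERG, 17 ETV1, 16 ETS1 and 11 GABPA peaks, 1 ETV4 peak and 1 JUND peak. Of the 4 windows with 4 members, the first by position were 199000001 to 200000000 of chromosome 1, with 20 ERG, 27 ETV1, 16 ETS1 and 12 GABPA peaks, and the adjoining window to 201000000, with 15, 19, 10 and 10. The other 2 were 133000001 to 134000000 of chromosome 5, with 9 ERG, 14 ETV1, 6 ETS1 and 8 GABPA peaks, and 60000001 to 61000000 of chromosome 20, with 6, 25, 3 and 41. In the same order, these 4 windows held 5, 1, 1 and 3 ETV4 peaks and 9, 1, 1 and 6 JUND peaks of PC3. The numbers of endogenous ETS peaks and of PC3 peaks in windows rich in members thus varied.

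Peaks of these regions lay throughout the deposited files. The labels do not say how the rows are ordered. Peaks of the 401 regions had a median position of 50.9% of the way through the ERG file (46.5 to 56.0%), against 49.7% for its other peaks, and of 49.8% in the ETV1 file (43.7 to 54.0%), against 50.01%. Over 5 equal parts of the ERG rows, 16.2%, 18.1%, 17.3%, 17.7% and 17.3% of the peaks belonged to the 401 regions. In the ETV1 file the parts held 4.64%, 4.64%, 4.75%, 4.18% and 4.75%. The row of the ERG peak and that of the ETV1 peak of the same region were nearly unrelated (Spearman rho -0.0146 over the 401 regions, a description of 2 libraries).

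**Figure D5:**
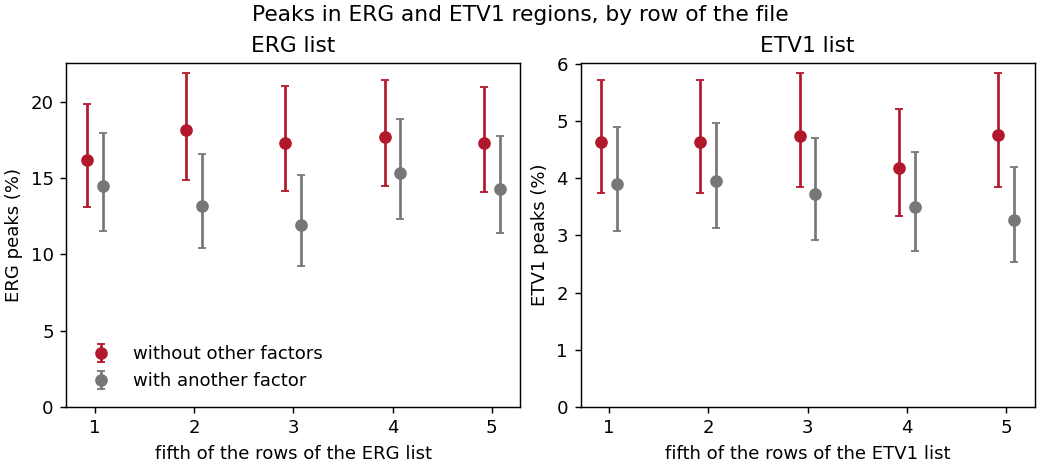
Percent of the ERG peaks (left) and ETV1 peaks (right) in each of 5 successive equal parts of the file's rows that belong to ERG and ETV1 regions without or with another factor (points, with Wilson 95% intervals). The shares without other factors stay between 16.2 and 18.1% in the ERG file and between 4.18 and 4.75% in the ETV1 file.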

How the data were processed

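The authors deposited 1 list of called ChIP-seq regions per factor, with 3 columns (chromosome, start, end) and no header, score or depth. Libraries were made with the Illumina ChIP-seq kit and the build is hg18, per the labels. For the aligner, peak caller, control and threshold, the sources used here give no name or value. Starts were assumed to be counted from 0, which the files do not state, and are printed counted from 1.

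The lists held 2314 ERG, 8736 ETV1, 2180 ETS1, 8070 GABPA, 3143 ETV4 and 2973 JUND peaks, used whole and merged by overlaps of at least 1 bp. No list repeated a peak or held peaks overlapping each other, and bedtools merge gave the same 24166 regions. The merging code was checked on simulated data, where all 400 planted ERG and ETV1 regions among 6650 were recovered. Planted peaks of a region always overlapped and planted regions lay far apart, so marginal overlaps were not tried. Distances are the bases between region edges, and 0 means touching. Shares carry Wilson intervals, medians binomial order-statistic intervals, and differences of shares Newcombe intervals, which were added after seeing the data. No significance test was run, since each factor has 1 library. Members, lists and measures were chosen with earlier results of these data known. Regions named are the top 3 by overlap, width and nearness to another factor, the 3 shortest overlaps and the 3 nearest pairs without overlap. Runs of members within 10 kb, the 3 fullest 1 Mb windows and the other windows with 4 members are also named. So are the chromosomes highest and lowest relative to the ETV1 list, and chromosomes with intervals leaving out 0 were added. Sequence, motif, gene and protein comparisons were not run. Analyses used Python 3.11.15, numpy 2.4.6, pandas 2.3.3, scipy 1.17.1 and matplotlib 3.10.9.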

Additional observations from a re-analysis of the deposited data

How the results depend on the processing

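The number of regions stayed within 1.5 times 401 under all 9 alternatives tried, from 303 with a reciprocal overlap of 50% to 502 when the PC3 lists were left out of the rule. It was 397 with peaks set to 400 bp around the midpoint, 430 with peaks up to 500 bp apart merged, and 399 on autosomes. Requiring a reciprocal overlap of 50% lowered the median midpoint distance to 90.5 bp, since it removes the loosely centred pairs. Leaving both PC3 lists out of the rule raised the share of regions within 10 kb of another factor to 41.8%, since regions that hold an ETV4 or JUND peak then enter at a distance of 0. Runs of neighbouring members held 4 regions with gaps up to 10 kb and 28 with gaps up to 50 kb. The other values of midpoint distance, nearness and row position stayed within the 95% interval of the main value. No paired analysis was possible because each factor has 1 library. The lists carry no depth or peak strength, so a factor's absence from a region means only that no peak was listed there.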
